A study of Mus musculus with 6 samples.

Results

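The insulin-like growth factor (IGF) genes followed here were the ligands Igf1 and Igf2, the receptors Igf1r and Igf2r, and the binding proteins Igfbp2, Igfbp3, Igfbp4, Igfbp5, Igfbp6 and Igfbp7, 10 of the 35968 mouse genes with a transcript in the deposited files. They were chosen by gene symbol. RNA was sequenced from MS-5, a mouse bone marrow stromal cell line, in 3 libraries of cells cultured alone (MS-5 only, MO1, MO2 and MO3) and in 3 libraries of cells that had shared the dish for 24 hr with SKM-1, a human acute myeloid leukaemia (AML) cell line (co-culture, MC1, MC2 and MC3). Both groups were kept in RPMI medium with 15% FBS, 2 mmol/L L-glutamine and penicillin/streptomycin, and AML cells were added to confluent MS-5 cells at 4 per stromal cell and 750000 per ml. Leukaemic cells were taken off the MS-5 cells by rinsing and dilute trypsin before RNA was made, so that some could remain. The labels name no altered gene, the comparison rests on 1 stromal and 1 leukaemia line, and nothing in the labels says that the 3 libraries came from separate cultures, so that the p-values measure the spread between libraries, which may be technical.

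IGF ligands are secreted peptides related to insulin. The receptor encoded by Igf1r is a tyrosine kinase that passes the signal on to insulin receptor substrates, PI3-kinase and AKT, whereas the product of Igf2r carries IGF2 to lysosomes, where it is degraded. The binding proteins hold the ligands outside the cell, extend their life and limit or assist their access to the receptor, and they are cut by proteases such as the pappalysins. In the bone marrow, stromal cells are a source of IGF1 and of several binding proteins for the blood-forming cells around them.

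Total estimated counts lay between 23978881 and 27182453 for the MO libraries and between 26258451 and 35694987 for the MC libraries. MO2 and MC3 stood apart from the other 4 libraries: 65170 and 66456 transcripts had a count in them, against 51533 to 57350 elsewhere, and 6.07% and 5.92% of their counts were mitochondrial, against 10.6% to 13.2%. Retained-intron transcripts took 3.39% and 3.42% of their counts, against 1.49% to 1.64% elsewhere. The labels name no batch, and MO2 and MC3 were set apart from these same data. All 12 stromal markers (among them Col1a1, Pdgfra, Vcam1 and Cxcl12) passed the filter on low counts, and none was called different in co-culture (smallest edgeR adjusted p = 0.290; the count at an unadjusted p under 0.05 was 1, Pdgfra), while 3 were higher with a term for MO2 and MC3 (Pdgfra, Pdgfrb and Fn1), in a fit that called 13.9% of all tested genes higher. Of 16 leukocyte markers, 12 passed the filter and 6 were called higher in co-culture, where 3.71% of all tested genes were called higher. The summed level of the 16 was 60.2 to 63.4 CPM (counts scaled to the TMM-normalized library total) in MO1 to MO3 and 103, 367 and 106 CPM in MC1, MC2 and MC3. Irf8 was the leukocyte marker at 0 in every MS-5 only library. The index of transcripts was of mouse sequence, so that a read from a human cell could be counted where it resembled a mouse transcript.

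The binding proteins are built around a cysteine-rich domain, and most members of the family carry a run of cysteines and glycines in it that is known as their signature. The coding sequence of this signature is shown because it parts the binding proteins that MS-5 cells expressed most from the others. The motif searched alternates glycine and cysteine, ends the run with a double cysteine and, after a gap of any pair of residues, closes with another cysteine. It was found in the translated coding sequence of Igfbp2, Igfbp3, Igfbp4 and Igfbp5 and not in that of Igfbp6 or Igfbp7, which hold 16 and 18 cysteines among 238 and 282 residues. Capitals mark the codons of the motif, with the neighbouring coding bases in lower case, on GRCm38 (GENCODE M21 transcripts).
Igfbp2 (chr1:72824766-72824813, plus strand): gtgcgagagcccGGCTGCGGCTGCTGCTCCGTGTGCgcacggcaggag
Igfbp3 (chr11:7213554-7213601, minus strand): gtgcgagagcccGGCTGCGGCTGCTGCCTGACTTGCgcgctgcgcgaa
Igfbp4 (chr11:99041638-99041685, plus strand): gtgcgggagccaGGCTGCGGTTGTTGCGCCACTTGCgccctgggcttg
Igfbp5 (chr1:72873954-72874001, minus strand): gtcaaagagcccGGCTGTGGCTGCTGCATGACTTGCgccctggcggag

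The IGF genes spanned a wide range of TPM, a level per transcript that is corrected for transcript length, so that genes can be compared. Igfbp6 and Igfbp7 were the most abundant in all 6 libraries, between 301 and 560 TPM and between 256 and 702 TPM, and together they made up 91.4% to 97.4% of the summed TPM of the binding proteins. Igfbp7 was above Igfbp6 in 4 of the 6 libraries, so that these neighbours in the order did not differ beyond the spread. Igfbp4 (23.6 to 76.6 TPM) and Igf1 (29.5 to 57.0 TPM) came next, and Igfbp4 was above Igf1 in 3 of the 6 libraries. The receptors followed, with 4.16 to 14.2 TPM for Igf1r and 4.33 to 12.7 TPM for Igf2r, and the ratio of Igf2r to Igf1r stayed between 0.892 and 1.09. Igf2 had 1.38 to 4.10 TPM, below both receptors and below Igf1 in each of the 6 libraries. Igfbp2 ran from 0.120 to 19.4 TPM, and Igfbp3 and Igfbp5 were lowest in each library, at no more than 0.0762 and 0.051 TPM.

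The groups were set against each other with the quasi-likelihood test of edgeR over the 13221 genes that passed a filter on low counts, with a Benjamini-Hochberg adjusted p-value under 0.1 as the threshold. Log2 fold changes are given with their standard error (SE) and the adjusted p of that test. Of the 10 IGF genes, 8 passed the filter. Igfbp2 was called higher in co-culture and no IGF gene was called lower, against 3.71% of all tested genes called higher and 0.666% called lower. At an unadjusted p under 0.05, which 14.3% of all tested genes had, Igfbp4 was also lower. The median log2 fold change of the 8 genes was 0.30, against -0.02 over all tested genes. With a term for MO2 and MC3 in the model, 3 IGF genes were called higher (Igfbp2, Igf1r and Igf2r) and 1 lower (Igfbp4), where 13.9% and 16.4% of all tested genes were called higher and lower. Without MO2 and MC3, 2 were called higher (Igfbp2 and Igf1r) and 1 lower (Igfbp4), where the shares of all genes were 8.33% and 4.71%. Without MO1, without MO2 or without MO3, 0 IGF genes and 0 genes in all were called. In bulk RNA, fewer cells of a type and less RNA per cell cannot be told apart.

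**Figure D1:**
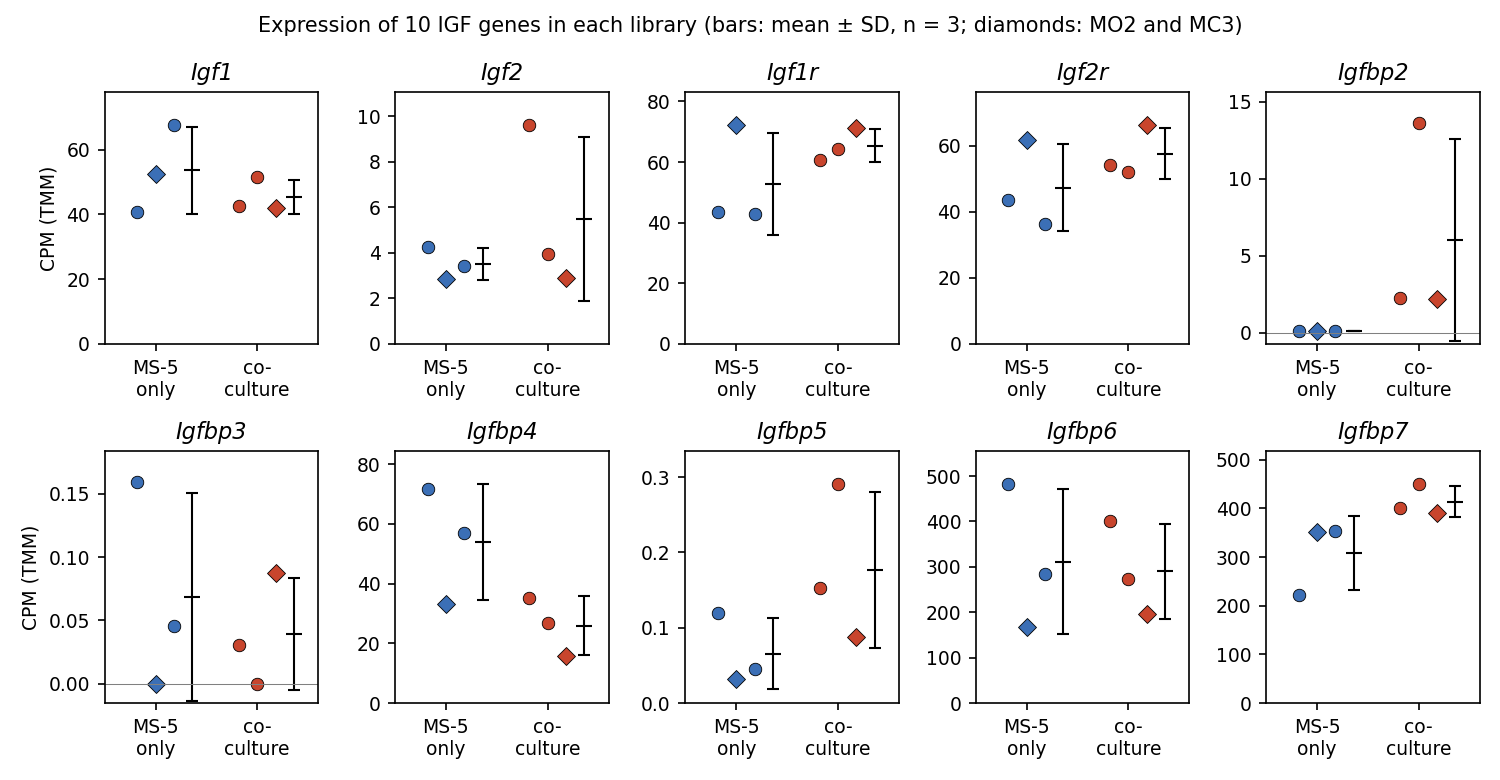
Level of each of the 10 IGF genes in CPM, normalized by TMM, with 1 point per library, blue for MS-5 only and red for co-culture. Diamonds mark MO2 and MC3, and the bars give the mean ± SD of the 3 libraries of a group. MC2 stands above the other libraries for Igfbp2, MC1 for Igf2, and co-culture lies lower for Igfbp4, with MO2 and MC1 overlapping.

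Among the ligands, Igf1 (GRCm38 chromosome 10, 87858265 to 87937042) encodes the peptide that activates the receptor of Igf1r. Its level was 40.8, 52.55 and 67.7 CPM in MO1, MO2 and MO3 and 42.7, 51.6 and 41.9 CPM in MC1, MC2 and MC3. The groups overlapped, with the lowest and the highest library both in MS-5 only, and the log2 fold change was -0.24 (SE 0.21, edgeR adjusted p = 0.721). In TPM the values were 35.6, 57.0 and 52.2 in MO1 to MO3 and 29.5, 34.0 and 32.1 in MC1 to MC3. On this scale every co-culture library lay below every MS-5 only library, as in 7.53% of all tested genes. By limma on log2(TPM + 0.5) the difference was -0.57 (SE 0.22, adjusted p = 0.440), so that it passed on neither scale. An effective length offset in edgeR gave -0.56 (adjusted p = 0.456).

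The reads of Igf1 were spread over transcripts of unequal length. The transcript Igf1-202, of 7052 bases, took 42.4%, 58.0% and 47.8% of the gene's estimated counts in MO1, MO2 and MO3, and 57.8%, 55.1% and 69.5% in MC1, MC2 and MC3. The highest share was in MC3 and the lowest in MO1, with the groups overlapping. Igf1-203 and Igf1-206, of 1673 and 651 bases, contain an exon of 52 bases that Igf1-202 skips and that changes the end of the precursor, the E peptide, which is removed from the mature hormone. The 4 annotated transcripts that hold this exon took 39.6%, 29.0% and 34.4% of the counts in MO1 to MO3 and 28.4%, 30.8% and 22.3% in co-culture, and the groups overlapped. The split of reads between transcripts is an estimate with no error in the files, so these shares are given without a test. The coding sequence across the exon is shown to make the difference between the transcripts visible, with the exon (chr10:87915298-87915349, plus strand) in capitals.
Igf1-203, with the exon: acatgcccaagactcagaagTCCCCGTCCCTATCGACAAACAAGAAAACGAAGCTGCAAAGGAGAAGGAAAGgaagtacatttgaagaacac
Igf1-202, without it: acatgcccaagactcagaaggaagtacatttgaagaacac

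Igf2 (chromosome 7, 142650766 to 142666816), an imprinted growth factor that is high in the fetus, was low. Its level was 4.23, 2.83 and 3.40 CPM in MO1, MO2 and MO3 and 9.61, 3.95 and 2.88 CPM in MC1, MC2 and MC3. MC1 alone stood out, with 315 counts against 75 to 106 in the other 5 libraries, and the groups overlapped. The log2 fold change was 0.65 (SE 0.48, adjusted p = 0.645), and without MC1 it was -0.04. Igf2-201 held 68.7% to 88.9% of the counts of a library, 279.91 of the 315 in MC1, and was the leading transcript in all 6. The gene Gm49394, which overlaps Igf2 on the same strand, had 0 counts in every library. Igf2os, Igf1os and Airn lie antisense to Igf2, Igf1 and Igf2r, and reads from them could not be told apart from those of their partners if strand was not used. Igf1 was above Igf2 by 15.0 to 37.8 times in MO1 to MO3 and by 7.19 to 17.2 times in co-culture, in TPM.

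The receptor genes had similar levels. Igf1r (chromosome 7, 67952827 to 68233668) had 43.4, 72.3 and 42.7 CPM in MO1, MO2 and MO3 and 60.6, 64.4 and 71.35 CPM in MC1, MC2 and MC3. Igf2r (chromosome 17, 12682406 to 12769664) had 43.7, 61.9 and 36.4 CPM in MO1 to MO3 and 54.3, 52.05 and 66.3 CPM in MC1 to MC3. For both, MO2 was the high library of MS-5 only and MC3 that of co-culture, and MO2 made the groups overlap. The log2 fold changes were 0.31 for Igf1r (SE 0.23, edgeR adjusted p = 0.654) and 0.28 for Igf2r (SE 0.22, adjusted p = 0.678). Between MO2 and MC3 alone, log2(CPM + 0.5) differed by -0.02 for Igf1r and 0.10 for Igf2r, and between the other 4 libraries by 0.53 and 0.41. With a term for MO2 and MC3, Igf1r passed (0.35, SE 0.12, adjusted p = 0.0951), as did Igf2r (0.30, SE 0.10, adjusted p = 0.088).

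**Figure D2:**
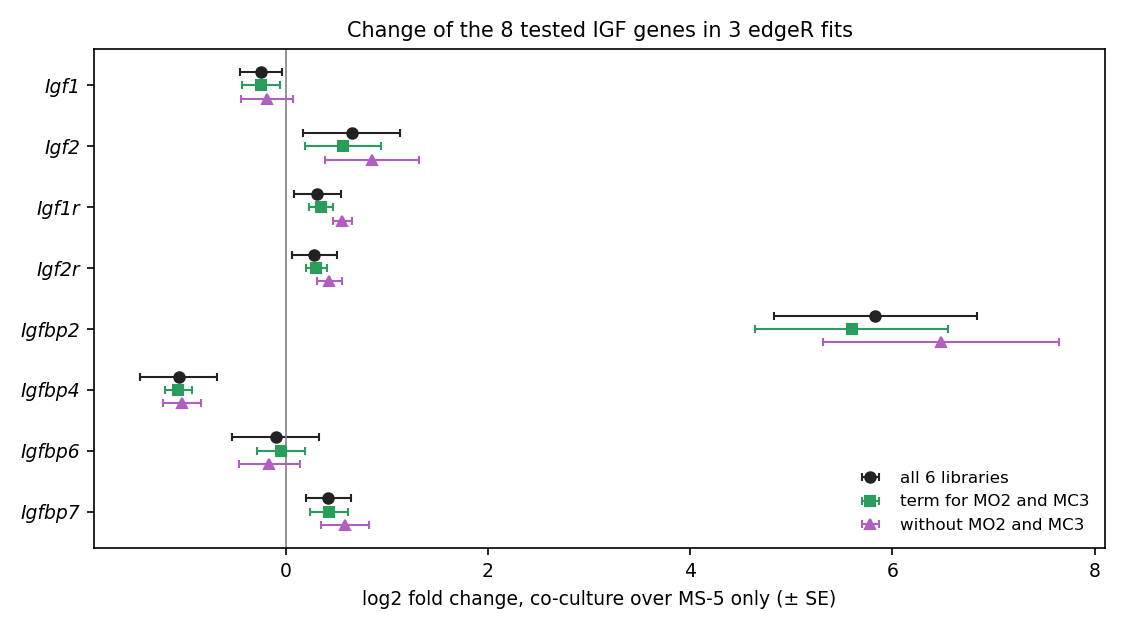
Log2 fold change of the 8 tested IGF genes, co-culture over MS-5 only, with its standard error, in edgeR fits with all 6 libraries (circles), with a term for MO2 and MC3 (squares) and without those libraries (triangles). Igfbp4 stays between -1.06 and -1.03 in the 3 fits, with a smaller error in the fits that allow for MO2 and MC3, and Igfbp2 lies between 5.60 and 6.48 with a standard error of about 1.

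Igfbp4 (chromosome 11, 99041244 to 99054392) encodes a binding protein that mostly restrains IGF action and that the pappalysin encoded by Pappa cleaves. Its level was 71.6, 33.3 and 57.1 CPM in MO1, MO2 and MO3 and 35.3, 26.8 and 15.7 CPM in MC1, MC2 and MC3. MO2 lay just below MC1, and the other MS-5 only libraries lay above all of co-culture. The mean was 54.0 ± 19.3 CPM (SD, n = 3) in MO1 to MO3 and 25.9 ± 9.85 CPM (SD, n = 3) in MC1 to MC3, which came to -1.06 on the log2 scale (SE 0.38, edgeR adjusted p = 0.265) and did not pass. Between MC3 and MO2 alone, log2(CPM + 0.5) differed by -1.07. For the mean of MC1 and MC2 against the mean of MO1 and MO3 it differed by -1.04. MO2 and MC3 were set apart from these same data, with no batch in the labels. With a term for MO2 and MC3 the log2 fold change was -1.06 (SE 0.14, adjusted p = 0.0124), and without these libraries it was -1.03 (adjusted p = 0.077).
In TPM, Igfbp4 was at 76.6, 51.5 and 53.7 in MO1 to MO3 and 35.0, 25.8 and 23.6 in MC1 to MC3. Every co-culture library lay below every MS-5 only library, as in 7.53% of all tested genes. Limma on log2(TPM + 0.5) gave -1.09 (SE 0.24, adjusted p = 0.0936), past the threshold, while with a pseudocount of 1 it did not pass (-1.08, adjusted p = 0.120). Leaving out each library in turn gave log2 fold changes between -1.36 and -0.78, with adjusted p-values from 0.149 to 0.632. The transcript Igfbp4-201, of 3831 bases, held 58.5% to 64.0% of the gene's counts in each library, with the groups overlapping.

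A ratio of genes within a library does not depend on how libraries are scaled. The TPM of Igfbp6 was 7.31, 5.85 and 6.001 times that of Igfbp4 in MO1, MO2 and MO3 and 13.4, 11.8 and 14.9 times in MC1, MC2 and MC3, without overlap. For Igfbp7 over Igfbp4, the ratios were 3.34, 12.2 and 7.41 in MO1 to MO3 and 13.3, 19.2 and 29.8 in MC1 to MC3. Igfbp4 made up 8.58%, 5.24% and 6.94% of the summed TPM of the binding proteins in MO1 to MO3 and 3.61%, 3.06% and 2.18% in co-culture. These ratios were chosen after the values were seen, and an exact two-sided permutation test of 3 libraries against 3 cannot give a p-value below 0.1.

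Igfbp6 (chromosome 15, 102144362 to 102149511), whose product prefers IGF2, had 482, 168 and 285 CPM in MO1, MO2 and MO3 and 402, 274 and 195 CPM in MC1, MC2 and MC3. The range of MS-5 only contained all co-culture libraries. The log2 fold change was -0.10 (SE 0.43, adjusted p = 0.977). MO2 and MC3 were the lowest library of their groups, the reverse of the receptors.
Igfbp7 (chromosome 5, 77349240 to 77408041), whose product binds IGFs only weakly and is also known from the vascular matrix, had 221, 352 and 353 CPM in MO1, MO2 and MO3 and 401, 450 and 391 CPM in MC1, MC2 and MC3. Every co-culture library was above every MS-5 only library, as in 11.6% of all tested genes. The mean was 309 ± 75.9 CPM (SD, n = 3) in MO1 to MO3 and 414 ± 31.4 CPM (SD, n = 3) in MC1 to MC3, which came to 0.42 on the log2 scale (SE 0.22, adjusted p = 0.477) and did not pass. In TPM, where 7.68% of tested genes had co-culture above throughout, the groups overlapped. The adjusted p with a term for MO2 and MC3 was 0.159.

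Igfbp2 (chromosome 1, 72824503 to 72852474), which encodes a binding protein found in the circulation, was almost absent from MS-5 only, with 2, 4 and 2 counts in MO1, MO2 and MO3. In MC1, MC2 and MC3 it had 74, 327 and 74 counts, or 2.26, 13.6 and 2.15 CPM. Every co-culture library was above every MS-5 only library, as in 11.6% of all tested genes, and MC2 held 75.5% of the co-culture CPM. Pooled over libraries, 475 counts in co-culture against 8 in MS-5 only, each divided by the pooled library size, gave a ratio of 51.1, with an exact 95% interval of 25.7 to 119 that covers counting error alone. The fitted log2 fold change was 5.83 (SE 1.01, edgeR adjusted p = 0.0734). It was 4.39 (adjusted p = 0.0239) without MC2, and over the 6 fits that each omit a library it lay between 4.39 and 6.23 and passed in 3 of them. Igfbp2 entered the test through its counts in co-culture, since those of MS-5 only were under the filter.

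All of the Igfbp2 counts, in both groups, were assigned to Igfbp2-203, a transcript of 906 bases that GENCODE lists as a retained intron, and the protein-coding transcripts Igfbp2-201 and Igfbp2-202 were at 0 in all 6 libraries. Igfbp2-203 opens with 387 bases of an intron and goes on with coding exons. Of its 876 words of 31 bases, 494 also occur in the coding transcripts and 382 do not. The border is shown because the gene's whole signal is counted on this transcript, with the retained intron in lower case and the coding exon in capitals.
Igfbp2-203 (chr1:72848936-72849235, GRCm38, plus strand): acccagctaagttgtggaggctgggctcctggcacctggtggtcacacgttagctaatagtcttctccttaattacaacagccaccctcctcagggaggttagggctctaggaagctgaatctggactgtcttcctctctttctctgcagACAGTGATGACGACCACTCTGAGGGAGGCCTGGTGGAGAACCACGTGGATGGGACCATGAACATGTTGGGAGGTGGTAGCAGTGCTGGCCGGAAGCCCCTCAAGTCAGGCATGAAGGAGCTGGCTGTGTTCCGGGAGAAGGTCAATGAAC
MO2 and MC3, the libraries with more retained-intron counts, had 4 and 74 counts of Igfbp2, and MC2 had the most. In TPM, MO2 (0.295) was the highest of MS-5 only, and MC3 (5.01) lay between MC1 (3.39) and MC2 (19.4). The part of intron retention in the Igfbp2 counts was not tested. The files give no positions of reads, so that the counts cannot be placed on the intron or on the exons.

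**Figure D3:**
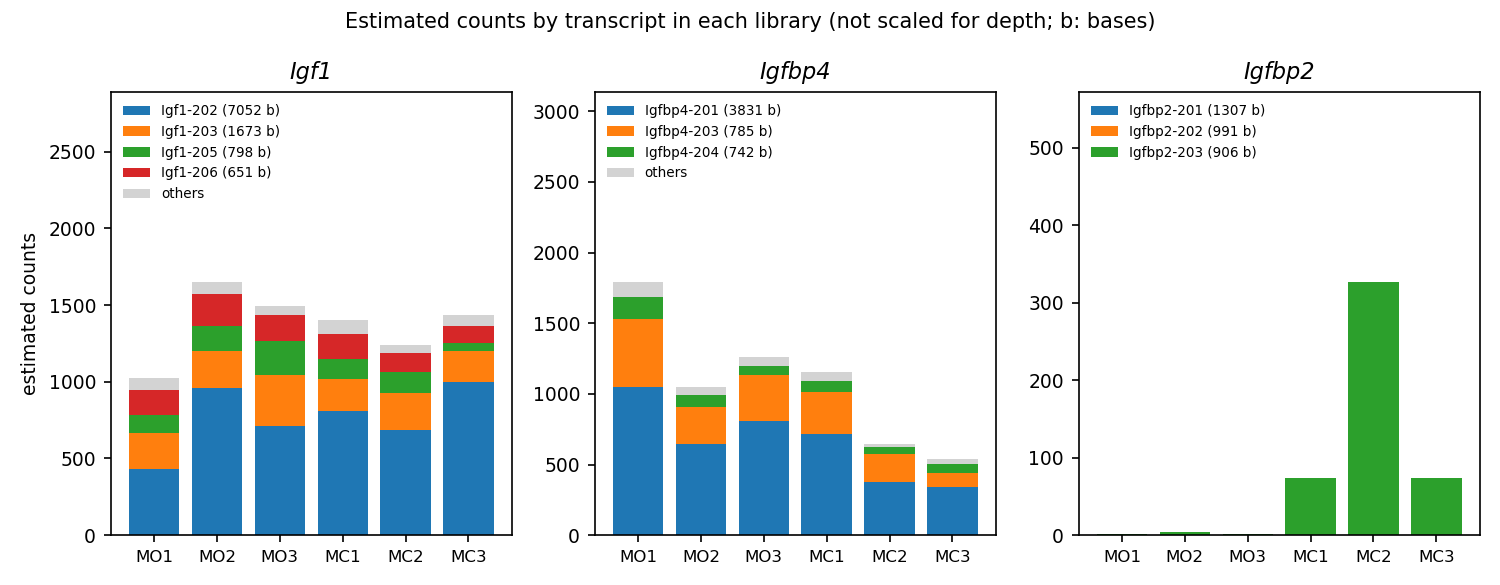
Estimated counts of each named transcript of Igf1, Igfbp4 and Igfbp2 in the 6 libraries, with the remaining transcripts in grey, stacked and not scaled for depth, with transcript lengths in bases. For Igfbp2 the bars consist of Igfbp2-203 alone, with 74, 327 and 74 counts in MC1, MC2 and MC3.

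The distribution of Igfbp2 over the co-culture libraries was set beside that of the leukocyte markers. For each gene, the mean CPM of MO1 to MO3 was subtracted from each co-culture library, and the remaining excess in MC2 was divided by the average excess in MC1 and MC3. For Igfbp2 this ratio was 6.40. In the 6 leukocyte markers called higher (Ptprc, Spi1, Irf8, Laptm5, Coro1a and Csf1r), this ratio was between 4.00 and 7.31. These 6 markers had 0 to 17 counts in MO1 to MO3 and, like Igfbp2, entered the test through co-culture. Not all of the 16 markers were higher: Itgal had 13.6, 8.66 and 9.38 CPM in MO1 to MO3 and 6.74, 6.69 and 5.65 CPM in MC1 to MC3 (log2 fold change -0.73, adjusted p = 0.196), the fold changes of Cd68 and Cd53 were -0.34 and -0.11, and Cd33, Tyrobp and Fcer1g were untested, with the groups overlapping. Spi1, a myeloid transcription factor, had 4, 15 and 8 counts in MO1 to MO3 and 273, 1357 and 353 in MC1 to MC3. Among the other IGF genes with a positive excess, the ratio was 0.166 for Igf2, 0.363 for Igf2r, 0.881 for Igf1r, 1.62 for Igfbp7 and 4.14 for Igfbp5, the last on 5, 7 and 3 counts, and it was 4.11 for the protease gene Htra1. The part of human RNA in the Igfbp2 counts was not tested.

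**Figure D4:**
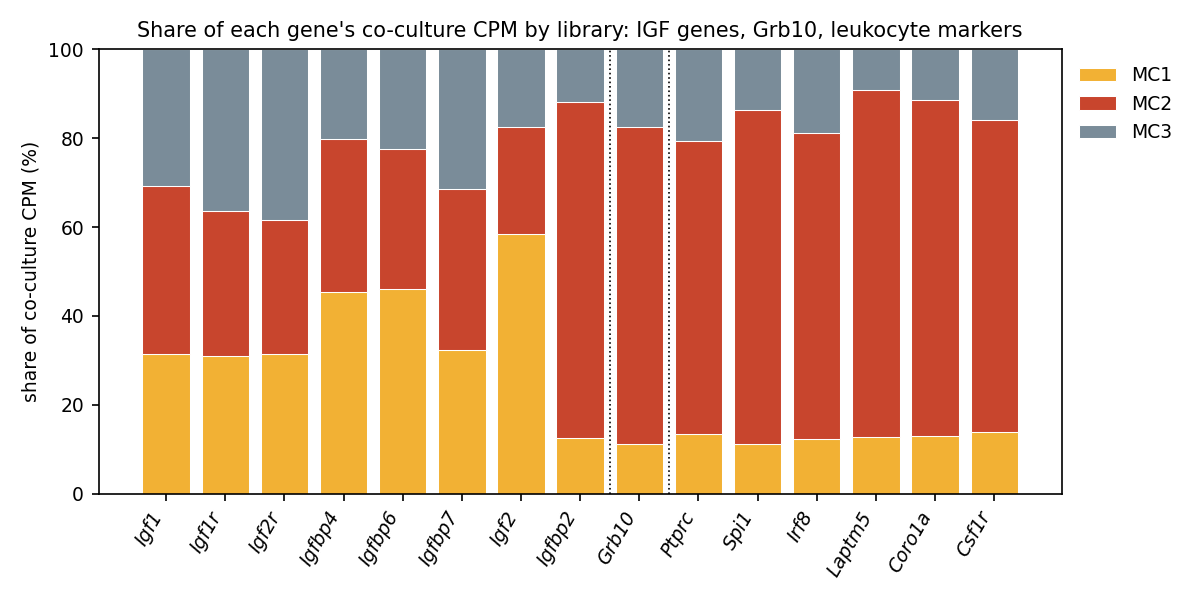
Share of each gene's co-culture CPM that came from MC1, MC2 and MC3, for 8 IGF genes, Grb10 and the 6 leukocyte markers called higher. MC2 holds 75.5% for Igfbp2, 71.2% for Grb10 and 66.1% to 78.2% for the markers, against 24.0% to 37.9% for the other IGF genes shown.

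Igfbp3 (chromosome 11, 7206086 to 7213923), the main carrier of IGFs in serum, and Igfbp5 (chromosome 1, 72857932 to 72874884), a binding protein of bone matrix, were under the filter and had no test in the fit with it. Igfbp3 had 4, 0 and 1 counts in MO1 to MO3 and 1, 0 and 3 in MC1 to MC3. Igfbp5 had 3, 1 and 1 counts in MO1 to MO3 and 5, 7 and 3 in MC1 to MC3. The ratio of pooled counts over pooled library sizes, co-culture over MS-5 only, was 0.689 for Igfbp3 (exact 95% counting interval 0.137 to 3.20) and 2.58 for Igfbp5 (0.893 to 9.09), so that a difference was not detectable at this depth. With no filter on low counts, the log2 fold changes were -0.64 for Igfbp3 (SE 1.46, adjusted p = 0.938) and 1.36 for Igfbp5 (SE 1.00, adjusted p = 0.716). Igfbp2 and Igfbp5 are neighbours on chromosome 1, as Igfbp3 is to Igfbp1 on chromosome 11, and Igfbp1 had 0 counts in all 6 libraries, which allows up to 3 counts or 0.0873 to 0.136 CPM in a library.

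Of 10 other genes that set how much IGF is free (further binding proteins, the acid labile subunit, proteases and their inhibitors), 5 passed the filter and 0 were called by edgeR, with 0 at an unadjusted p under 0.05 and 0 by DESeq2 or limma. Of all tested genes, edgeR called 3.71% higher and 0.666% lower, and 14.3% had an unadjusted p under 0.05, so that 0 of 5 is near the background. The protease gene Pappa2 had 3.39, 3.56 and 2.18 CPM in MO1 to MO3 and 4.09, 3.74 and 5.21 CPM in MC1 to MC3, and its log2 fold change was 0.51 (SE 0.29, adjusted p = 0.520). In TPM it was at 0.392, 0.629 and 0.433 in MO1 to MO3 and 0.801, 1.09 and 1.35 in MC1 to MC3, with co-culture above throughout, as in 7.68% of all tested genes. With an effective length offset the log2 fold change of Pappa2 was 1.17 (SE 0.27, adjusted p = 0.103). Its relative Pappa, which cleaves IGFBP4, had 2, 3 and 3 counts in MO1 to MO3 and 1, 0 and 1 in MC1 to MC3, under the filter, and with no filter the log2 fold change of Pappa was -2.07 (SE 1.16, adjusted p = 0.613). The serine protease gene Htra1 (log2 fold change 0.36, adjusted p = 0.701) and the metalloprotease gene Adam12 (-0.36, adjusted p = 0.593) did not pass either, and the median over the 5 genes was 0.22. The inhibitor gene Stc2, whose product blocks pappalysins, was under the filter and is named after its values were seen. It had 0, 0 and 1 counts in MO1 to MO3 and 4, 22 and 24 in MC1 to MC3, a ratio of 43.1 on the same pooled basis with an exact counting interval of 7.38 to 1734. With no filter its log2 fold change was 5.03 (SE 1.302, adjusted p = 0.114), which did not pass. Stc2 passed in 0 of the 4 fits without a library that kept it (log2 fold change from 4.47 to 7.09, adjusted p from 0.113 to 0.366).

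Of 29 genes of the signalling path from the insulin receptor substrates to AKT, mTOR and FOXO, 28 passed the filter, 3 were called higher (Ddit4, Foxo3 and Grb10) and 0 lower, where 3.71% and 0.666% of all tested genes were called higher and lower. With a term for MO2 and MC3, 9 were called higher and 3 lower (13.9% and 16.4% of all tested genes), and without these libraries 7 higher and 0 lower (8.33% and 4.71%). When MO1, MO2 or MO3 was left out, 0 were called, as over all genes, and 0 passed a threshold of 0.05 in the main fit. Ddit4, which encodes an inhibitor of mTOR signalling, had 108, 92.5 and 93.0 CPM in MO1 to MO3 and 234, 177 and 205 CPM in MC1 to MC3, which came to 1.07 on the log2 scale (SE 0.16, edgeR adjusted p = 0.0734). Foxo3, a transcription factor that AKT holds in check, had 54.4, 59.97 and 66.6 CPM in MO1 to MO3 and 96.2, 93.4 and 82.3 CPM in MC1 to MC3, which came to 0.59 on the log2 scale (SE 0.14, adjusted p = 0.0951). For both genes every co-culture library was above every MS-5 only library, as in 11.6% of all tested genes. The excess of MC2 was 0.649 times that of MC1 and MC3 for Ddit4 and 1.14 times for Foxo3.
Grb10, an imprinted gene whose product binds and restrains the IGF1 and insulin receptors, had 2, 2 and 3 counts in MO1 to MO3 and 19, 88 and 31 in MC1 to MC3 (log2 fold change 4.16, SE 0.91, adjusted p = 0.0875). Grb10, like Igfbp2, entered the test through its counts in co-culture. Its excess in MC2 was 5.50 times that in MC1 and MC3, within the range of the leukocyte markers, and the part of human RNA in it was not tested. The insulin receptor gene Insr (log2 fold change 0.56, adjusted p = 0.427) and Akt1 (-0.23, adjusted p = 0.842) did not pass. The median log2 fold change of the 28 genes was 0.20. Under the replicate block, where 3.35% of all tested genes were called higher, Ddit4 passed (adjusted p = 0.087), and Foxo3 (adjusted p = 0.43) and Grb10 (adjusted p = 0.131) did not.

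**Figure D5:**
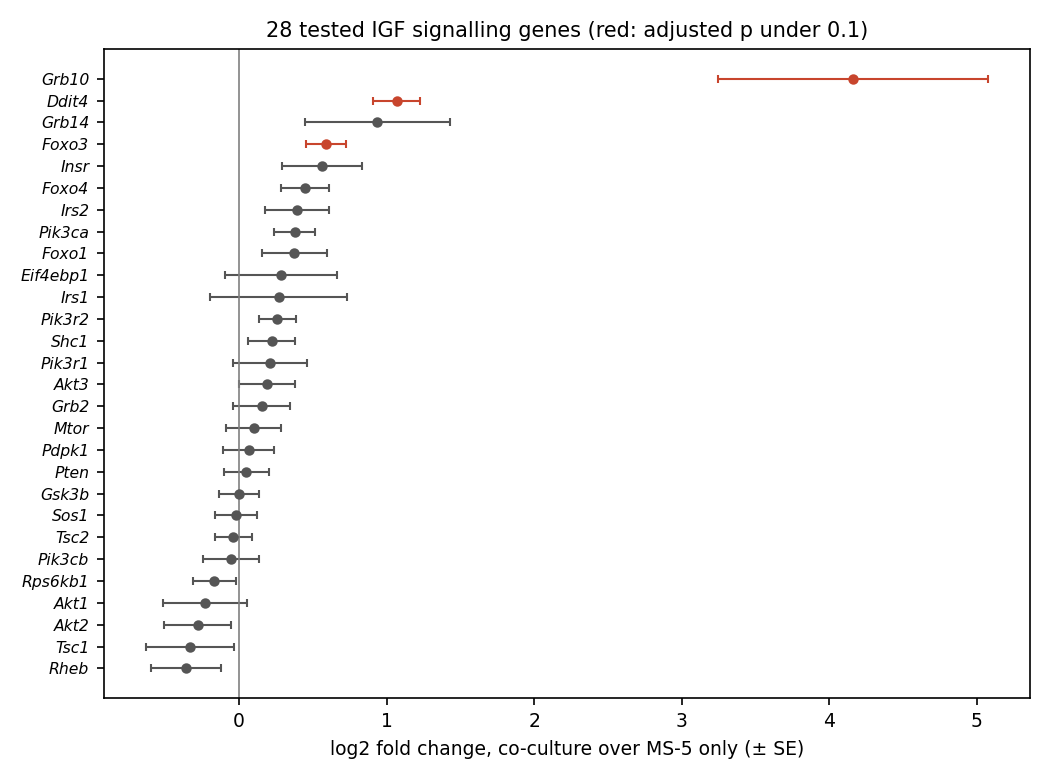
Log2 fold change of the 28 tested signalling genes, co-culture over MS-5 only, with its standard error, ordered by size. Ddit4, Foxo3 and Grb10, in red, passed an adjusted p of 0.1, and Grb10 has the widest error bar of the list, 0.91.

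Genes that regulate Igf2 mRNA, or are imprinted as Igf2 is, were also followed. Of 10 listed, 4 passed the filter and 0 were called by edgeR, while 3 had an unadjusted p under 0.05, as did 14.3% of all tested genes, and DESeq2's Wald test called 2 higher (Mest and Igf2bp2), as it did 6.88% of all tested genes. Igf2bp2, which encodes an RNA-binding protein of Igf2 mRNA, had 25.1, 36.8 and 21.7 CPM in MO1 to MO3 and 45.2, 45.7 and 59.1 CPM in MC1 to MC3, with co-culture above throughout, as in 11.6% of all tested genes. Its log2 fold change was 0.84 (SE 0.23, adjusted p = 0.147), and with a term for MO2 and MC3 it passed (0.86, SE 0.10, adjusted p = 0.011). Igf2bp1, of the same family, had a log2 fold change of 0.66 (adjusted p = 0.324), and Mest, an imprinted gene, one of 2.69 (adjusted p = 0.140) on 6, 18 and 4 counts in MO1 to MO3 and 36, 101 and 46 in MC1 to MC3. Mest, like Igfbp2, entered the tests through its counts in co-culture. The excess in MC2 was 3.85 times that in MC1 and MC3 for Igf2bp1 and 4.35 times for Mest, against 0.735 times for Igf2bp2. Without MC2 the log2 fold change of Mest was 1.84 (adjusted p = 0.377). The median log2 fold change of the 4 genes was 0.75.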

How the data were processed

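The authors quantified paired reads of stranded mRNA libraries with kallisto 0.43.0 against a mouse GRCm38 cDNA index. Per transcript, the deposited files hold estimated counts (expected counts, not scaled between libraries), TPM values and lengths. Whether the counting used strand is not given in the sources used here. Of 118489 transcripts, 116728 matched GENCODE M21 (GRCm38) by versioned identifier and length. The other 1761 were left out.

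Estimated counts were summed per gene, rounded and normalized by TMM (factors 0.923 to 1.17). Genes were filtered by filterByExpr and tested with edgeR 4.0.16 (R 4.3.3), and CPM values use the TMM factors. Standard errors are the log2 fold change over the square root of F. DESeq2 1.42.0 and limma 3.58.1 were alternatives. In simulated counts for the 13221 genes, edgeR recovered 147 of 200 genes given a 2 log2 unit change, with 11 false calls among 158. Intervals cover counting error only.

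The named genes are the 10 IGF genes and, from each further list, the genes past the threshold or else the 3 tested genes with the largest change; transcripts are named from 10% of a gene's counts. Others named were chosen after their values were seen. Members and lists were chosen with earlier results of these data known. H19 was not analysed here.

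No pair of libraries of the same group agreed within sampling noise (mean chi-square per gene from 37.7 to 236).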

Additional observations from a re-analysis of the deposited data

How the results depend on the processing

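The number of IGF genes called was 1, and 1 under 11 of the alternatives. It was 2 with limma on log2(TPM + 0.5) or on log2(TPM + 0.1), 4 with a term for MO2 and MC3, 3 without both, 0 at thresholds of 0.05 and 0.01, and 0 to 1 with each library left out, being 0 without any of MO1, MO2 or MO3. For the 3 signalling genes called, limma gave 0, 1 and 0 with pseudocounts of 0.5, 0.1 and 1, an effective length offset gave 1, a term for MO2 and MC3 gave 12, leaving out both gave 7, thresholds of 0.05 and 0.01 gave 0 and 0, and leaving out each library gave 0 to 2. The genes of Igf2 mRNA regulation and imprinting called were 0, against 2 by DESeq2's Wald test, 2 with a term for MO2 and MC3 and 2 without both. For the genes of IGF availability, 0 were called under all 20 alternatives. The cause of these differences was not tested.

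The direction of Igf1, Igf1r, Igf2r, Igfbp2, Igfbp4 and Igfbp7 held in 18 of 18 alternative fits each. That of Igf2 turned without MC1, and its values with each library left out ran from -0.042 to 0.96. That of Igfbp6 turned without MO1 and without MC3, from -0.42 to 0.38. Igfbp2 passed in 15 of the 18 fits and Igfbp4 in 4.

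Over all genes, 579 were called, against 1268 by DESeq2's Wald test, 356 and 224 by limma with pseudocounts of 0.5 and 1, 444 with the replicate block, 3999 with a term for MO2 and MC3 and 1702 without them. The labels do not say whether the replicate numbers pair the libraries. The correlation of deviations from the group mean was 0.53 for number 1, -0.29 for number 2 and -0.52 for number 3, and 0.73 for MO2 with MC3. These correlations cannot decide whether cultures were paired, since whatever sets MO2 and MC3 apart enters them as well. With the replicate block, 1 IGF gene (Igfbp2), 1 signalling gene and 1 gene of the imprinting list were called. Igfbp3 and Igfbp5, with 0 to 7 counts in a library, were tested only with no filter on low counts and did not pass.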
